A study of Mus musculus with 2 samples.

Results

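The genes described here are the interleukin-1 (IL-1) and interleukin-36 (IL-36) family cytokines Il1a, Il1b, Il1rn, Il1f5, Il1f6, Il1f8, Il1f9, Il18 and Il33, with the decoy receptor gene Il1r2. The 10 genes were taken by symbol from the 31053 in the count tables, and each symbol had 1 gene identifier. Their unique molecular identifiers (UMIs, 1 per captured RNA molecule) were counted per cell type and per library.

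The data are 2 single-cell RNA libraries of dorsal skin, 1 from wild-type mice (WT) and 1 from Chrna5-/- mice (KO), which lack the alpha 5 subunit of nicotinic acetylcholine receptors. Both groups were female mice labelled C57BL/6, at an age of 6 to 8 weeks, and both received imiquimod, a Toll-like receptor agonist that gives mouse skin a psoriasis-like inflammation. On 6 days 62.5 mg of 5% imiquimod cream was put on the shaved back, and the skin was taken on day 7. The labels name the substrain C57BL/6N, to which the KO line was backcrossed, and C57BL/6J in the protocol for the skin digest. For each experimental group 5 mice are counted, and pooling of mice into a library is not stated. A group treated with the cream base is mentioned in the labels and not analysed here, so both libraries come from treated skin. Skin was freed of fat and digested with collagenase, and cells that excluded a dead-cell dye were sorted. With 1 library per genotype there is no replicate check: every difference given is between these 2 libraries, every interval is a 95% interval of counting error only, and no p-value is given.

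IL-1α (Il1a) and IL-1β (Il1b) act through the receptor IL1R1, and the antagonist IL-1Ra (Il1rn) occupies that receptor without signalling. IL-36α (Il1f6), IL-36β (Il1f8) and IL-36γ (Il1f9) act in the same way through IL1RL2, where IL-36Ra (Il1f5) is the antagonist. IL-18 and IL-33 have receptors of their own, and all these receptors signal through the adaptor MyD88 to NF-κB. IL-1R2 binds IL-1 and does not signal. IL-1α and IL-33 are held in epithelial cells and released on damage, IL-1β and IL-18 are cut by inflammasome proteases, and IL-36 cytokines of keratinocytes are known for their part in psoriasis, in which they are activated by neutrophil proteases.

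The WT library held 147260653 UMIs in 14557 barcodes and the KO library 123839924 UMIs in 10886 barcodes, and 49 barcodes occurred in both. Cells kept after filtering numbered 13938 in WT, with a median of 4603 UMIs, and 10233 in KO, with a median of 6374. Chrna5 had 12 UMIs in the kept WT cells and 6 in the kept KO cells, too few to check the genotype labels. Cells were assigned to a type by the summed level of its marker genes, with the level given as CPM (UMIs per 1000000 UMIs of the cells named). The types with at least 200 cells in each library were compared, namely keratinocytes (8059 WT and 3852 KO cells), fibroblasts (2280 and 2678) and monocytes and macrophages (875 and 778). Each type is a range of marker level and not a sharp class, and 101 WT and 155 KO keratinocytes lay within 1.25-fold of the minimum. The summed keratinocyte markers stood at 35539 CPM in WT against 31695 CPM in KO keratinocytes, and 16 of 16 were detected in each library.

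The libraries stood apart in ways that touch the values below. Gated keratinocytes had a median of 3094 UMIs in WT and 14464 in KO. When both libraries were clustered together, clusters 2 and 3 held 30.7% and 15.4% of the WT keratinocytes, at median depths of 743 and 1870 UMIs, and at most 0.312% of the KO keratinocytes. The leading genes of cluster 3 included the mast cell genes Cma1 and Mcpt4. Cluster 10 held 65.8% of the WT and 1.19% of the KO fibroblasts. Its leading 10 genes were Cpxm1, C3, Grem1, Rarres2, Serpina3n, Mmp3, Gpx3, Pdpn, Ctsk and Saa3. None was on the fibroblast marker list used here, and only Pdpn was on another list, that of lymphatic endothelium. Cluster 14 held 3.38% of the WT and 55.0% of the KO fibroblasts. Cluster 0 held 96.3% of the WT and 97.4% of the KO monocytes and macrophages. RNA from lysed cells that is captured with other cells also differed: in 5 cell types pooled as a background (vascular and lymphatic endothelium, pericytes, melanocytes and T cells, 423 WT and 922 KO cells with median depths of 4516 and 3964 UMIs), Il1f9 stood at 4.52 CPM in WT against 0.533 CPM in KO, and Il1rn at 9.42 and 5.15 CPM. Levels of a member near these values were read as background.

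Most of the members lie in 2 stretches of chromosome 2, in mm10. Il1f8, Il1f9, Il1f6, Il1f5, Il1f10 and Il1rn follow each other in this order on the plus strand within 198 kb (chr2:24153161-24351494). Il1a (chr2:129299610-129309972) and Il1b (chr2:129364570-129371139) lie on the minus strand within 71.5 kb. Il1r2 (chr1:40074079-40125231) is followed on chromosome 1 by the genes of the signalling receptors Il1r1 and Il1rl2. Il33 is on chromosome 19 (chr19:29925114-29960718). Il18 (chr9:50554827-50581840) lies 4.40 Mb from Chrna5 on chromosome 9.

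The promoters shown here are those of the IL-1 agonists, the IL-36γ gene, Il33 and the antagonist gene Il1rn, so that cytokines lower in KO stand beside an antagonist that sits among the IL-36 genes and differed less. Il1f6, the member with the largest difference in keratinocytes, has no entry in the promoter table. Each runs 5′ to 3′ on the strand of the gene, from 250 bases before a RefSeq start to 50 after it, in build GRCm38.p6. Capitals mark matches searched on both strands: to the AP-1 letters TGANTCA, to TATA letters (TATAAA) and to C/EBP letters (TTGCNNAA).
Il1a, chr2:129309923-129310222, minus strand: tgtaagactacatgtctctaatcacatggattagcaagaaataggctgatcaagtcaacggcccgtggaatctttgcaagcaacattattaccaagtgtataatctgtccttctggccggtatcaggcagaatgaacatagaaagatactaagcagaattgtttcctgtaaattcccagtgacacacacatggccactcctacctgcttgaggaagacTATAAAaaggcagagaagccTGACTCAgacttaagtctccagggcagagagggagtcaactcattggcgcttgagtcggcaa
Il1b, chr2:129371090-129371389, minus strand: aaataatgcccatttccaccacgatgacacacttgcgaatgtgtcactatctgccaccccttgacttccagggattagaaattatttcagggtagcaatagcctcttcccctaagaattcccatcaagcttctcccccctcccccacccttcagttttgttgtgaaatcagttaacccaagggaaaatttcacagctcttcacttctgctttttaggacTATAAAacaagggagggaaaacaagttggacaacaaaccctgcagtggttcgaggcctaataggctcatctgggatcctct
Il1f9, chr2:24186226-24186525, plus strand: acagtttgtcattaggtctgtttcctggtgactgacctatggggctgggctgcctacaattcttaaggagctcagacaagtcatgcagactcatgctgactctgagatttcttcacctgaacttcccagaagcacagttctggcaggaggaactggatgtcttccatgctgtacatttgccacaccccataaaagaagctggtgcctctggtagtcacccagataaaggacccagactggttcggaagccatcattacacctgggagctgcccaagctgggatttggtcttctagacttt
Il1rn, upstream start, chr2:24336610-24336909, plus strand: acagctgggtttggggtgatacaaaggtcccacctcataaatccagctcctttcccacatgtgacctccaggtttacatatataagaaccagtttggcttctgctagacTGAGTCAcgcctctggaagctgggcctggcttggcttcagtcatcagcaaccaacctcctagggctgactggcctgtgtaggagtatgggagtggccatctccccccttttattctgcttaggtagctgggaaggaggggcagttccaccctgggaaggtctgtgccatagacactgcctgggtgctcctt
Il1rn, downstream start, chr2:24345121-24345420, plus strand: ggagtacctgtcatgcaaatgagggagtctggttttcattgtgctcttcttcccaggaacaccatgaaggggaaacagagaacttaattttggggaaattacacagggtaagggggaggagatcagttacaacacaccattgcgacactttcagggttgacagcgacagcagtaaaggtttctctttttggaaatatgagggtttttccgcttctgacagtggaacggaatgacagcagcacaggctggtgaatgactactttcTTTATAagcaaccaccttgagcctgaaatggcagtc
Il33, upstream start, chr19:29924863-29925162, plus strand: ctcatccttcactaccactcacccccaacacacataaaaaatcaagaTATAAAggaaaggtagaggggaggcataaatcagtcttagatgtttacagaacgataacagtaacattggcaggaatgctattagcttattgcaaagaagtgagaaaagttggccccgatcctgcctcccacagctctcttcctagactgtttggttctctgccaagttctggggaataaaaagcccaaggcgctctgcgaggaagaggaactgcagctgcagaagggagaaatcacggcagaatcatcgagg
Il33, downstream start, chr19:29945540-29945839, plus strand: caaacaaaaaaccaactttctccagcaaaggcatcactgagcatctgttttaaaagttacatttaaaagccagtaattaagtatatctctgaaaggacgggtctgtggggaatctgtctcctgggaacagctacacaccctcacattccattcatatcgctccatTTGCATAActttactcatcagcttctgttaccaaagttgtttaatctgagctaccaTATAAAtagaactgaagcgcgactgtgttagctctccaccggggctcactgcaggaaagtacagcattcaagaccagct

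The Il1a promoter held TATA letters 32 bases and AP-1 letters 12 bases before its start, and that of Il1b TATA letters 31 bases before. Il1f9 held none of the 3 patterns. The upstream Il1rn promoter held AP-1 letters 141 bases before its start, and the downstream one TATA letters on the opposite strand 15 bases after its start. A further Il1rn promoter, at chr2:24345041-24345340, held none of the 3 patterns and is not shown. The upstream Il33 promoter held TATA letters 203 bases before its start, and the downstream one TATA letters 29 bases and C/EBP letters 85 bases before. Of 32817 promoters of this length, 7.81% held the AP-1 letters, 10.8% those of C/EBP and 13.6% TATA letters. These matches describe letters and not bound sites, and the counts here do not tell the starts of Il1rn or Il33 apart.

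**Figure D1:**
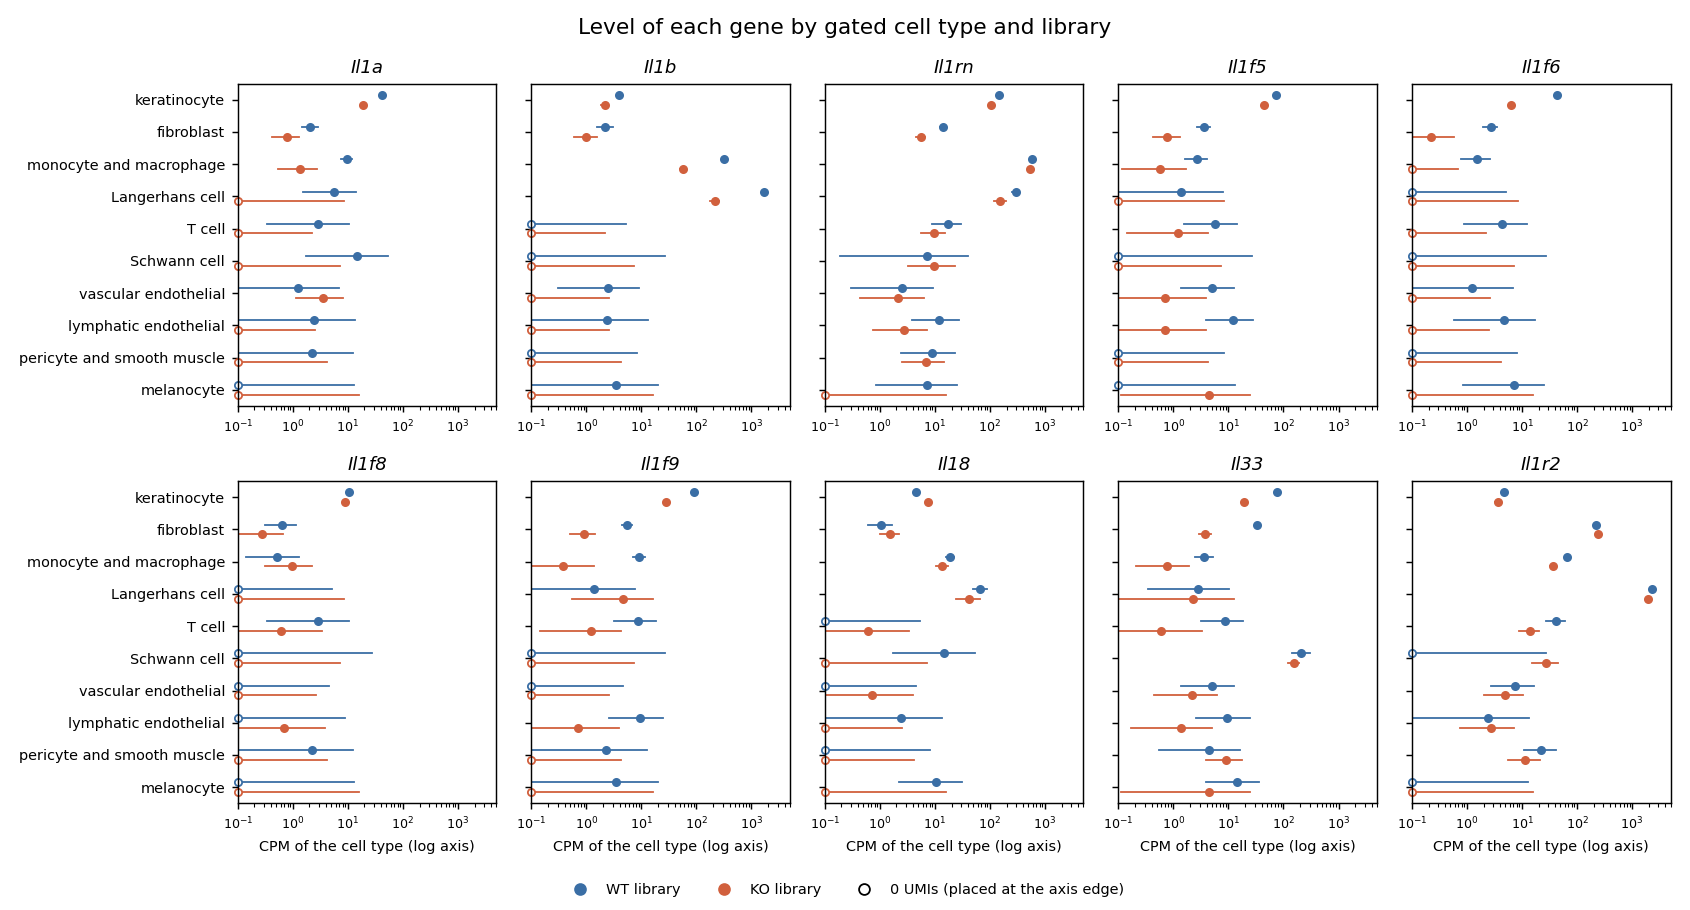
Level of each of the 10 genes in 10 gated cell types, as CPM on a log axis, with 1 point per library (WT blue, KO orange), lines for 95% intervals of counting error and open points for 0 UMIs. Of the types drawn, keratinocytes are highest in Il1a and the IL-36 genes and Langerhans cells in Il1b and Il1r2. Neutrophils and dendritic cells, at most 13 cells a library, are not drawn. In Langerhans cells Il1b stands at 1693 CPM in WT against 214 CPM in KO.

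Most of the cytokines came mainly from a single lineage in both libraries. Keratinocytes held 94.5% to 97.6% of the UMIs of Il1a, Il1f5, Il1f6, Il1f8 and Il1f9. They also held most of the UMIs of Il33 (87.5% in WT and 82.7% in KO), Il1rn (70.6% and 67.8%) and Il18 (64.6% and 79.5%). Of all kept UMIs, keratinocytes held 104888540 of 145944152 in WT and 74997362 of 122486354 in KO. The WT shares of Il1rn and Il18 did not exceed that share. In CPM, Il1rn was higher in monocytes and macrophages, and Il18 in Langerhans cells, than in keratinocytes in both libraries. Il1b was the myeloid member: monocytes and macrophages held 49.4% of its UMIs in WT and 38.8% in KO, and Langerhans cells, the dendritic cells of the epidermis, a further 24.2% and 12.2%. Il1r2 was the member of the dermis, with 53.1% of its UMIs in WT and 67.0% in KO from fibroblasts. Langerhans cells held 22.9% and 13.3% of the Il1r2 UMIs, from 51 WT and 47 KO cells.

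Over all kept cells, 7 of the 10 members were lower in KO and 0 were higher, against 7.38% and 21.4% of all 17146 genes tested. In such a sum over cell types, fewer cells of a type and less RNA per cell cannot be told apart, so the comparisons below stay within a type. Within keratinocytes, 6 of the 10 members were lower in KO and 1 was higher. In these counts lower or higher means at least 1.5-fold, with an interval that leaves out 1 and at least 20 UMIs in both libraries together. Over all 15563 genes tested in keratinocytes, 10.4% were lower and 12.9% higher by the same rule. Il1b had the fewest UMIs of the 6, at 3.98 CPM in WT against 2.15 CPM in KO, and in cells with at least 5000 UMIs its ratio was 0.962 and 5 members were lower. That level is small beside the 312 and 56.5 CPM of Il1b in monocytes and macrophages, whose summed markers in the keratinocyte gate were 78.2 CPM in WT against 29.0 CPM in KO, with 0 of 16 at 0. Their part in the Il1b difference was not tested. The median log2 ratio of KO over WT was -0.82 over the 10 members and 0.05 over all genes tested.

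**Figure D2:**
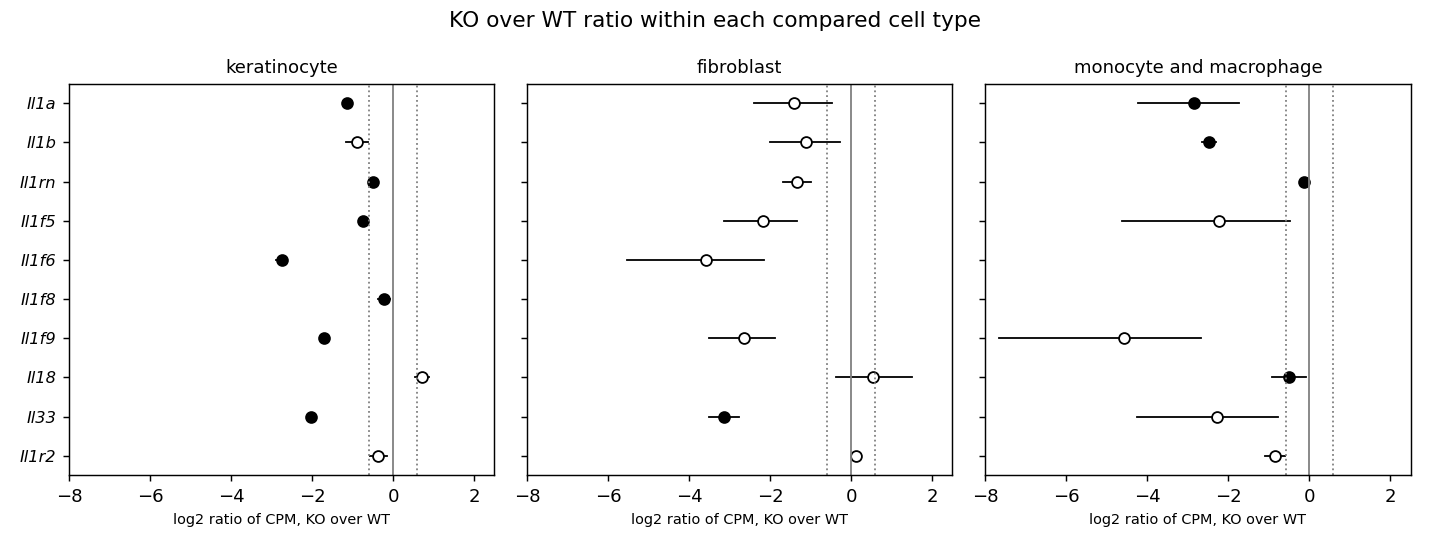
Ratio of KO over WT for each member within keratinocytes, fibroblasts and monocytes and macrophages, on a log2 scale, with 95% intervals of counting error and dotted lines at 1.5-fold. Open points are members under 20% of their highest cell type in both libraries, and members under 20 UMIs are not drawn. In keratinocytes 6 members lie left of the dotted line and Il18 lies right of it.

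The IL-36 agonists did not move together. Il1f6 (IL-36α) stood at 43.1 CPM in WT against 6.40 CPM in KO keratinocytes, 6.73-fold lower in KO (6.13 to 7.41). Il1f9 (IL-36γ) stood at 91.9 and 28.3 CPM, a ratio of 0.308 (0.294 to 0.323). Il1f8 (IL-36β) stood at 10.4 and 8.92 CPM, a ratio of 0.858 (0.778 to 0.946) that lies inside 1.5-fold. A UMI of Il1f6 was found in 12.4% of WT and 6.00% of KO keratinocytes, although the KO cells were deeper. In cells thinned to 1000 UMIs the shares were 2.35% and 0.571%. In the background cell types 1.42% of WT and 0% of KO cells had an Il1f6 UMI before thinning, where 0 UMIs allow a level of up to 0.655 CPM.

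Il1f6 was highest in the outer layers of the epidermis and in the upper follicle. Suprabasal keratinocytes, which have left the basal layer to differentiate, held Il1f6 at 101 CPM in WT against 16.8 CPM in KO. Upper follicle keratinocytes held it at 109 and 8.68 CPM, 12.6-fold lower in KO (10.5 to 15.1). In basal keratinocytes the WT level of Il1f6 was smaller, at 16.8 CPM, against 6.22 CPM in KO. Il1f9 followed another order in WT, at 182 CPM in suprabasal, 83.5 in basal and 72.7 in upper follicle cells, against 71.1, 45.6 and 22.1 CPM in KO. In sebaceous gland cells (93 WT and 112 KO cells, too few to be compared by the rule) Il1f9 stood at 81.7 CPM in WT against 6.16 CPM in KO. Il1f8 in these gland cells stood at 21.1 and 20.1 CPM, and in suprabasal cells at 22.5 and 22.4 CPM. Il1f8 was lower in KO in upper follicle cells, at 23.5 and 15.1 CPM, and in basal cells, at 5.07 and 3.29 CPM. Il1f10, the remaining gene of the chromosome 2 cluster, had 18 UMIs in WT and 5 in KO keratinocytes.

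Il1f5, the gene of the IL-36 receptor antagonist, was lower in KO keratinocytes too, but by less than Il1f6 and Il1f9. Its level was 74.1 CPM in WT against 44.2 CPM in KO, 1.67-fold lower (1.61 to 1.74). It was concentrated in suprabasal cells, at 226 and 141 CPM, and in upper follicle cells, at 200.4 and 86.6 CPM. In basal cells Il1f5 stood at 13.5 CPM in WT against 15.1 CPM in KO, a ratio of 1.12 (0.930 to 1.34).

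Il1a, the IL-1 agonist that keratinocytes store, was 2.21-fold lower in KO keratinocytes (2.08 to 2.35), at 40.9 CPM in WT against 18.5 CPM in KO. The difference lay in the layers where Il1a was high. Upper follicle cells held 187 CPM in WT against 46.2 CPM in KO, and suprabasal cells 80.7 and 26.6 CPM. In basal cells Il1a stood at 10.1 and 11.1 CPM, with a ratio of 1.10 (0.882 to 1.35). In outer follicle cells, the sheath of the lower follicle, Il1a stood at 5.22 CPM in WT against 7.13 CPM in KO, a ratio of 1.37 (1.04 to 1.80).

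Il1rn, the IL-1 receptor antagonist, differed less between the libraries than Il1a. Over all keratinocytes it stood at 145 CPM in WT against 103 CPM in KO, a ratio of 0.707 (0.688 to 0.727) that did not reach 1.5-fold. Suprabasal cells had a larger difference, with 277 CPM in WT against 157 CPM in KO, a ratio of 0.567 (0.537 to 0.598). Basal cells held 122 and 116 CPM, and outer follicle cells 69.8 and 84.1 CPM, a ratio of 1.20 (1.12 to 1.30). Its ratio thus lay on either side of 1 by layer.

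**Figure D3:**
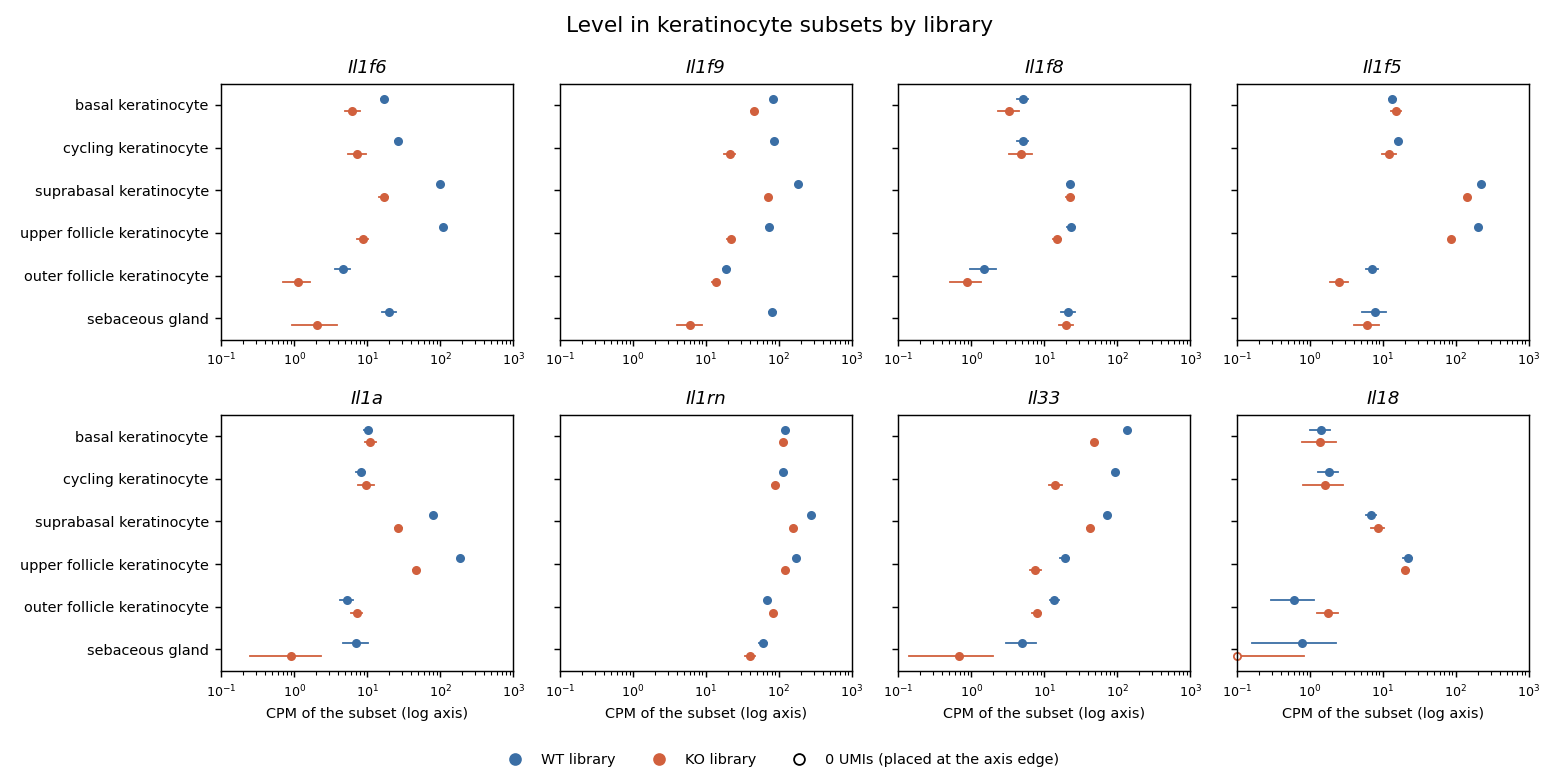
Level of 8 members in 6 keratinocyte subsets, as CPM on a log axis, by library (WT blue, KO orange), with 95% intervals of counting error. Il1f6, Il1f5 and Il1a are highest in suprabasal and upper follicle cells and lower there in KO, whereas Il33 is highest in basal cells, at 136 CPM in WT against 48.3 CPM in KO.

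Counted by subset, the members lower in KO numbered 8 of 10 in suprabasal cells, where 10.8% of all genes tested were lower, and 7 of 10 in upper follicle cells, where 7.92% were. In basal cells 4 of 10 were lower against 9.64% of all genes, namely Il1f6, Il1f8, Il1f9 and Il33. In outer follicle cells 5 of 10 were lower against 10.1% of all genes, and Il18 was higher, as were 8.21% of all genes. No member was higher in the suprabasal, upper follicle or basal cells, where 11.6%, 8.97% and 9.56% of all genes were. The subsets differed in depth, with median UMIs of 1851 in WT and 21967 in KO suprabasal cells and 2369 and 18402 in upper follicle cells. Basal cells had medians of 2685 and 13389 and outer follicle cells 3815 and 8120. Ratios within subsets were not recomputed under other settings.

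Il33, a nuclear cytokine of barrier cells, was lower in KO in both keratinocytes and fibroblasts. In keratinocytes it stood at 76.7 CPM in WT against 18.8 CPM in KO, 4.08-fold lower (3.85 to 4.32). Basal cells held most, at 136 and 48.3 CPM. Cycling keratinocytes, those with cell division genes (785 WT and 188 KO cells), held 94.4 and 14.2 CPM. In fibroblasts Il33 stood at 32.7 CPM in WT against 3.72 CPM in KO, 8.77-fold lower (6.80 to 11.5), with a UMI in 7.81% and 1.34% of cells. The background cell types held 7.54 CPM of Il33 in WT and 2.66 CPM in KO, so the KO fibroblast level was close to background and the WT level was not. Schwann cells, the glia of skin nerves, held the highest Il33 level of all gated types, at 211 CPM (141 to 303) in 27 WT cells and 155 CPM (122 to 193) in 137 KO cells. Their ratio was 0.732 (0.473 to 1.16).

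Il18 was the member that was higher in KO keratinocytes, at 4.58 CPM in WT against 7.49 CPM in KO, a ratio of 1.64 (1.45 to 1.85). The make-up of the keratinocytes moved with it. Upper follicle cells, in which Il18 stood highest, at 21.9 and 20.3 CPM, were 792 of 8059 WT and 752 of 3852 KO keratinocytes. Within these cells the ratio was 0.928 (0.782 to 1.10), and with basal, suprabasal, follicle and cycling cells weighted equally it was 1.17. Suprabasal cells held 6.92 CPM in WT against 8.51 CPM in KO. Il18 in outer follicle cells was 0.614 CPM in WT, from 10 UMIs, and 1.78 CPM in KO, from 37 UMIs. Inner follicle cells (33 WT and 110 KO cells) held 7.25 CPM in WT, from 7 UMIs, and 18.2 CPM in KO, from 79 UMIs.

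Clusters that held at least 50 keratinocytes of each library gave the same comparison for cells more alike, although the members were among the genes used for clustering. In cluster 9, led by Krt1, Krt10 and Calm4 of differentiating cells (693 WT and 799 KO keratinocytes), Il1f6 stood at 127 CPM in WT against 12.8 CPM in KO, and Il1a at 139.7 and 40.0 CPM. Il1f9 stood at 179 and 43.3 CPM there, Il1rn at 264 and 126 CPM, and Il33 at 68.2 and 20.3 CPM. Cluster 7, led by Krt5 and cell division genes (1067 WT and 56 KO keratinocytes), showed another pattern: Il1f5 stood at 13.4 CPM in WT against 28.5 CPM in KO, a ratio of 2.13 (1.51 to 2.91). In the same cluster Il1f6 stood at 21.1 CPM in WT against 21.7 CPM in KO, and Il1rn at 138 and 159 CPM. Il33, itself among the leading genes of this cluster, was 136 and 50.1 CPM there, and Il1f9 94.4 and 56.2 CPM. In cluster 8, which held 24.5% of the KO and 1.05% of the WT keratinocytes, the Il1f6 ratio was 0.660 (0.361 to 1.32), the Il33 ratio 0.773 (0.613 to 0.985) and the Il1rn ratio 1.37 (1.19 to 1.59). The WT values of cluster 8 rest on 85 cells.

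Of the other keratinocyte clusters with 50 cells of each library, cluster 19 was led by lipid synthesis genes such as Scd1 and Fa2h (301 WT and 283 KO cells). In this cluster Il1f9 stood at 44.8 CPM in WT against 5.06 CPM in KO, Il1f6 at 10.4 and 2.47 CPM, and Il1f8 at 10.3 and 10.5 CPM. In cluster 30, with the follicle keratin gene Krt75 among its leading genes (79 WT and 205 KO cells), Il18 was higher in KO, at 7.39 and 21.6 CPM, a ratio of 2.92 (1.67 to 5.52). Il1a in cluster 30 stood at 24.8 and 1.34 CPM. In clusters 5 and 6, in each of which Il1f6 had 9 UMIs in WT and 0 in KO, Il33 stood at 4.38 and 1.08 CPM and at 5.71 and 0.847 CPM.

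Monocytes and macrophages held both Il1b and Il1rn, of which Il1b passed 1.5-fold and Il1rn did not. Il1b, the secreted IL-1 agonist, stood at 312 CPM in WT against 56.5 CPM in KO, 5.52-fold lower (4.89 to 6.25). A UMI of Il1b was found in 28.3% of WT and 7.07% of KO cells, and in 13.4% and 2.66% after thinning to 1000 UMIs. In the background cell types, 0.946% of WT and 0% of KO cells had an Il1b UMI. Il1rn stood at 578 CPM in WT against 533 CPM in KO, a ratio of 0.922 (0.879 to 0.967).

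Il1b was lower in KO within each subset of the monocyte and macrophage gate and in Langerhans cells, but not in the few neutrophils and dendritic cells. Inflammatory monocytes (395 WT and 196 KO cells) held 559.8 CPM of Il1b in WT and 146 CPM in KO, while their Il1rn was 671 and 799 CPM. Macrophages with Mrc1 and Pf4, the resident type of the dermis (428 WT and 480 KO cells), held 90.9 and 6.54 CPM of Il1b, and the remaining cells of the gate (52 WT and 102 KO) 467 and 58.0 CPM. In the resident cells 3 members were lower in KO, namely Il1b, Il18 and Il1r2, and 0 were higher, against 7.79% and 11.7% of all genes tested. Their Il18 stood at 24.2 CPM in WT against 14.4 CPM in KO. Langerhans cells, too few to be compared by the rule, held 1693 CPM of Il1b in WT and 214 CPM in KO, a ratio of 0.127 (0.101 to 0.156). The summed monocyte and macrophage markers in the Langerhans gate were 5681 CPM in WT against 2730 CPM in KO, with 0 of 16 at 0, and the Mrc1 and Pf4 macrophage markers 2027 and 884 CPM, with 0 and 3 of 10 at 0. Their part in the difference was not tested. The Langerhans markers themselves summed to 14011 and 14252 CPM. Langerhans Il1rn stood at 295 and 153 CPM and Il18 at 67.1 and 41.0 CPM. Neutrophils were 13 WT and 3 KO cells, with Il1b at 4078 and 6242 CPM, a ratio of 1.53 (0.985 to 2.31). Dendritic cells were 3 WT and 5 KO cells, with Il1b at 516 and 1507 CPM, a ratio of 2.92 (1.79 to 4.97).

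Over all monocytes and macrophages, 6 of the 8 members with 20 UMIs were lower in KO and 0 were higher, against 8.11% and 10.6% of all genes tested. Il1a was among them, at 9.60 CPM in WT against 1.33 CPM in KO. The other keratinocyte members in this count, Il1f5, Il1f9 and Il33, stood at 9.10 CPM or less. Markers of other cells moved with these values. The summed neutrophil markers in the monocyte and macrophage gate were 77.5 CPM in WT, with 2 of 11 at 0, and 30.1 CPM in KO, with 4 of 11 at 0. The summed keratinocyte markers were 1236 and 707 CPM, with none of 16 at 0. Their part in the result was not tested. After thinning to 1000 UMIs 3 members were lower, and 2 were when members under 20% of their highest cell type were left out.

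Il1r2, the decoy receptor, took different directions by cell type. In fibroblasts it stood at 223 CPM in WT against 244 CPM in KO, a ratio of 1.10 (1.05 to 1.14), with a UMI in 66.8% and 61.6% of cells. In monocytes and macrophages it stood at 66.2 and 36.8 CPM, a ratio of 0.555 (0.468 to 0.656). Inflammatory monocytes held 121 and 81.2 CPM. In Langerhans cells Il1r2 stood at 2346 CPM in WT against 1983 CPM in KO, a ratio of 0.845 (0.778 to 0.918), and a UMI was found in 82.4% and 89.4% of cells. Basal keratinocytes held 5.43 and 8.04 CPM, against 17.3 and 7.81 CPM in the background cell types. Among those types, T cells held the most Il1r2 UMIs, 29 in WT and 23 in KO. Those types may therefore not measure background alone for Il1r2, and whether the basal levels lay clear of background cannot be told.

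Clusters that held at least 50 fibroblasts of each library went opposite ways in Il1r2. Cluster 10, with 65.8% of the WT fibroblasts but only 32 KO cells, was not compared. Of the 3895 Il1r2 UMIs in WT fibroblasts, clusters 11, 14 and 13 held 598, 81 and 600, so most lay outside them. In cluster 11, with Has1 and Col3a1 among its leading genes (275 WT and 453 KO cells), Il1r2 stood at 311 CPM in WT against 464 CPM in KO. In cluster 14, led by Tnfaip6 and Ptx3 (77 WT and 1474 KO cells), it stood at 158 and 233 CPM. In cluster 13, led by Coch and Fmod (382 WT and 646 KO cells), it stood at 232 and 137 CPM. Il33 was lower in KO in cluster 11, at 16.1 and 0.381 CPM, and in cluster 14, at 258 and 4.59 CPM. In cluster 13 it stood at 6.56 and 3.39 CPM, near background, with a ratio of 0.517 (0.236 to 1.12). Fibroblasts with a UMI of Pi16 or Dpp4, which mark fibroblasts of the deep dermis and fascia, held Il1r2 at 248 CPM in WT against 254 CPM in KO and Il33 at 23.1 and 4.57 CPM. The other fibroblasts held Il1r2 at 199.99 and 233 CPM and Il33 at 41.4 and 2.84 CPM.

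Of the 9 members with 20 UMIs in fibroblasts, 7 were lower in KO and 0 higher, against 6.71% and 13.3% of all genes tested. Of these 7, Il33 was the one clear of background in WT, and the other 6 stood at 13.8 CPM or less. The keratinocyte members in the count lay close to background: Il1f9 stood at 5.55 CPM in WT against 0.890 CPM in KO fibroblasts, against 4.52 and 0.533 CPM in the background cell types. Il1f6 stood at 2.69 and 0.222 CPM, against 3.02 CPM and 0 UMIs. The summed keratinocyte markers in the fibroblast gate were 1446 CPM in WT against 788 CPM in KO, with none of 16 at 0. Haemoglobin and other red cell genes were 425 and 9.45 CPM in the same gate. Their part in these low values was not tested. After thinning to 1000 UMIs 2 members were lower, and 1, Il33, was when members under 20% of their highest cell type were left out.

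The UMIs of antagonist per UMI of agonist are a ratio of 2 genes and are compared only between the libraries. In monocytes and macrophages there were 1.85 Il1rn UMIs per Il1b UMI in WT and 9.44 in KO. In Langerhans cells there were 0.174 and 0.713, in inflammatory monocytes 1.20 and 5.48, and in Mrc1 and Pf4 macrophages 5.47 and 57.5, the last from 20 Il1b UMIs. In keratinocytes there were 3.54 Il1rn UMIs per Il1a UMI in WT and 5.55 in KO, but in basal cells 12.1 and 10.5. For IL-36, the Il1f5 UMIs per UMI of the 3 agonists were 0.509 in WT and 1.01 in KO keratinocytes. That balance went the other way in outer follicle cells, at 0.284 and 0.160.

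**Figure D4:**
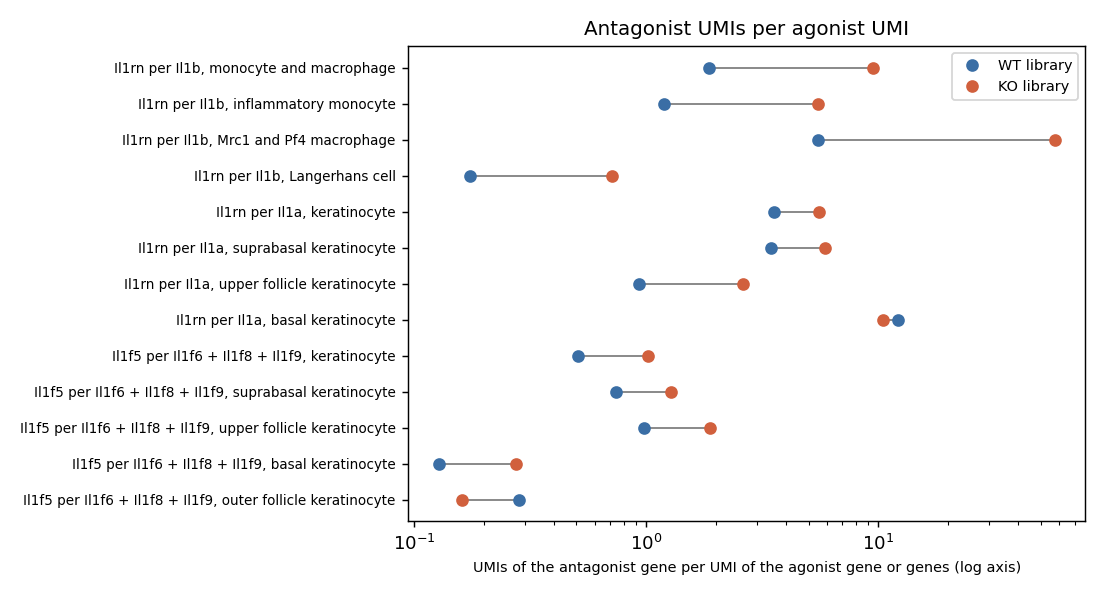
UMIs of the antagonist gene per UMI of its agonist gene or genes, on a log axis, in each cell type or subset (WT blue, KO orange). The KO value lies above the WT value in 11 of 13 lines. It lies below the WT value for Il1rn per Il1a in basal cells and for Il1f5 per IL-36 agonist in outer follicle cells. The lines overlap, since subsets are parts of the keratinocyte or the monocyte and macrophage lines. Il1rn per Il1a in outer follicle cells is not drawn. In those cells the KO over WT ratio of CPM was 1.20 for Il1rn and 1.37 for Il1a.

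Of 8 receptor and decoy genes with 20 UMIs in keratinocytes, 0 were lower and 3 were higher in KO, against 10.4% and 12.9% of all genes tested. The 3 were Il18r1, Il18bp, which encodes a soluble IL-18 inhibitor, and Sigirr, a negative regulator of the family. Il18bp and Sigirr had low levels and lay just past 1.5-fold. Il18bp stood at 0.648 CPM in WT against 1.00 CPM in KO, a ratio of 1.54 (1.10 to 2.17). Sigirr stood at 0.782 and 1.20 CPM, a ratio of 1.54 (1.13 to 2.10). Il18r1 stood at 2.81 CPM in WT against 7.13 CPM in KO keratinocytes, a ratio of 2.54 (2.20 to 2.93). The summed T cell markers in the keratinocyte gate were 47.7 CPM in WT against 61.5 CPM in KO, with 0 of 12 at 0. Their part in the Il18r1 difference was not tested. Over all T cells Il18r1 stood at 92.6 and 76.6 CPM, a ratio of 0.827 (0.609 to 1.13). In gamma delta T cells (95 WT and 272 KO cells, too few to be compared by the rule) it stood at 114 and 48.8 CPM, and in the other T cells, from 22 and 79 UMIs, at 67.6 and 118 CPM. Its partner Il18rap stood at 62.7 and 43.7 CPM over all T cells, a ratio of 0.697 (0.473 to 1.04). The IL-36 receptor gene Il1rl2 stood at 17.8 CPM in WT against 14.9 CPM in KO keratinocytes, a ratio of 0.835 (0.774 to 0.899). Il1r1 stood at 14.9 and 11.2 CPM, and the shared co-receptor Il1rap at 20.1 and 19.1 CPM. The remaining receptor genes in keratinocytes were Il1rl1, at 2.92 and 3.80 CPM, and Il18rap, at 0.563 and 0.520 CPM.

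In fibroblasts 2 of 5 receptor genes were lower in KO and 0 were higher, against 6.71% and 13.3% of all genes tested. They were Il1r1, at 291 CPM in WT against 163 CPM in KO, a ratio of 0.562 (0.537 to 0.588), and the IL-33 receptor gene Il1rl1, at 92.9 and 47.0 CPM, a ratio of 0.506 (0.465 to 0.550). Il1rl2 stood at 75.9 and 77.9 CPM in fibroblasts. In monocytes and macrophages 1 of 6 was lower, Il1rl2, at 7.08 and 3.98 CPM, and 0 were higher, against 8.11% and 10.6% of all genes tested. Il1r1 stood at 67.7 and 58.2 CPM in these cells.

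The adaptors and kinases behind the receptors mostly stayed within 1.5-fold. In keratinocytes 0 of 15 were lower and 2 were higher, against 10.4% and 12.9% of all genes tested, so the share higher was near the background. The 2 were the ubiquitin ligase gene Peli1, at 112 CPM in WT against 198 CPM in KO, and Tab3, at 16.9 and 26.3 CPM. Nfkb1 had the highest level of the list in keratinocytes, at 215 and 182 CPM. In fibroblasts 0 of 15 passed in either direction, against 6.71% of all genes lower and 13.3% higher. In monocytes and macrophages 1 of 14 was lower, the inhibitory kinase gene Irak3, at 47.5 and 29.2 CPM, and 3 were higher, Peli1, Traf6 and Tollip, against 8.11% and 10.6% of all genes. Peli1 in these cells stood at 145 CPM in WT against 263 CPM in KO.

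Among genes that process the cytokines, 3 of 13 were lower in KO keratinocytes and 1 was higher, against 10.4% and 12.9% of all genes tested. The gene higher in KO was Casp4, an inflammatory caspase, at 52.3 and 99.5 CPM, a ratio of 1.90 (1.84 to 1.97). The 3 lower ones had low levels in keratinocytes: Nlrp3, the sensor of the best known inflammasome, at 1.83 and 0.360 CPM, the pore protein gene Gsdmd, at 1.82 and 0.587 CPM, and Ctss, the gene of a protease that can activate IL-36γ, at 8.81 and 3.08 CPM. Nlrp3 and Ctss were far higher in monocytes and macrophages, where neither passed 1.5-fold, with Nlrp3 at 152 and 119 CPM and Ctss at 1923 and 1935 CPM. The monocyte and macrophage markers in the keratinocyte gate, given above, moved with these low values, and their part was not tested. The protease gene Casp1, which cuts IL-1β and IL-18, stood at 12.1 and 11.8 CPM. Pycard, the inflammasome adaptor, had the highest level of the list, at 202 and 186 CPM in keratinocytes. In monocytes and macrophages 3 of 13 were lower and 1 was higher, against 8.11% and 10.6% of all genes. Pycard was lower, at 112 and 56.9 CPM, as were the neutrophil protease genes Elane and Prtn3. Elane had 31 UMIs in WT and 0 in KO, which with 3 UMIs as the floor is at least 6.89-fold lower. P2rx7, the ATP receptor that triggers IL-1β release, was higher in KO, at 67.7 and 107 CPM. In fibroblasts 1 of 12 was lower, Ctss, at 8.52 and 4.11 CPM, small beside its monocyte and macrophage level, and 1 was higher, P2rx7, at 4.12 and 7.84 CPM, against 6.71% and 13.3% of all genes.

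Of 18 genes that IL-1 and IL-36 are known to induce, 10 were lower in KO keratinocytes and 3 were higher, against 10.4% and 12.9% of all genes tested, so the share higher was near the background. Saa3, an acute phase protein gene, stood at 91.4 CPM in WT against 4.40 CPM in KO, and the antimicrobial gene Lcn2 at 748 and 153 CPM. The neutrophil chemokine gene Cxcl2 stood at 255 and 84.2 CPM, the granulocyte growth factor gene Csf3 at 8.09 and 1.89 CPM, and Il23a, a subunit of the cytokine IL-23, at 22.3 and 5.23 CPM. Higher in KO were Tnfaip3, an inhibitor of NF-κB signalling, at 73.8 and 123 CPM, and the IL-36 response regulator Nfkbiz, at 216 and 341 CPM. So was the chemokine gene Cxcl1, at 114 and 182 CPM. Some of these levels were small beside those of another type. Fibroblasts held Saa3 at 4011 and 367 CPM, Csf3 at 124 and 26.4 CPM and Cxcl1 at 2315 and 2400 CPM. Monocytes and macrophages held Cxcl2 at 6542 and 2655 CPM. Lcn2 and Il23a were highest in keratinocytes among the 3 compared types. The part of RNA from other cells in the low values was not tested.

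In fibroblasts 9 of 17 response genes were lower in KO and 1 was higher, against 6.71% and 13.3% of all genes tested. Lcn2 stood at 668 CPM in WT against 11.6 CPM in KO fibroblasts, Saa3 at 4011 and 367 CPM, and Ptges, which makes prostaglandin E2, at 707 and 157 CPM. Tnfaip3 was the gene higher in KO, at 224 and 414 CPM. Among 16 response genes in monocytes and macrophages, 7 were lower and 2 were higher, against 8.11% and 10.6% of all genes. The 2 were Il6, at 11.9 and 26.5 CPM, and Cxcl5, from 6 and 27 UMIs. Saa3 stood at 3229 CPM in WT against 135 CPM in KO in these cells, and Cxcl2 at 6542 and 2655 CPM.

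**Figure D5:**
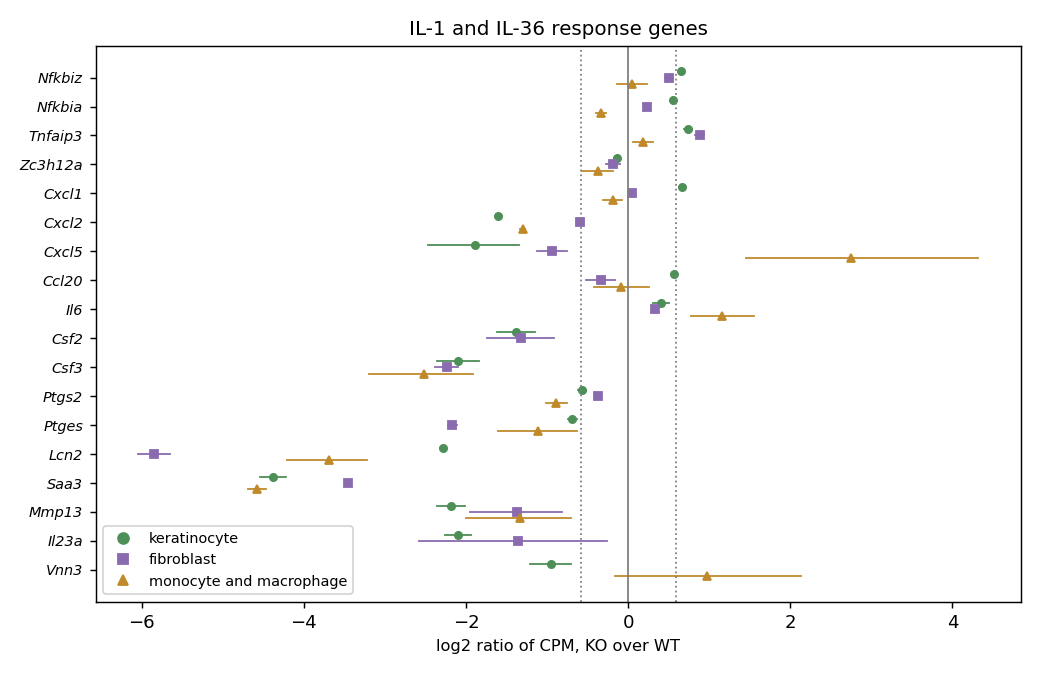
Log2 ratio of KO over WT for 18 genes that IL-1 and IL-36 are known to induce, in keratinocytes (circles), fibroblasts (squares) and monocytes and macrophages (triangles), with 95% intervals of counting error and dotted lines at 1.5-fold. Saa3 and Lcn2 lie far left in all 3 cell types, whereas Tnfaip3 lies right of 0 in each, past 1.5-fold in keratinocytes and fibroblasts. Saa3 in keratinocytes (91.4 CPM in WT and 4.40 in KO) is small beside its fibroblast level. Lcn2 in monocytes and macrophages (93.2 and 7.20 CPM) is small beside its keratinocyte level. The part of RNA from other cells was not tested.

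Genes with the most similar pattern over 35 points, each a cell type in a library with at least 50 cells, were found by Pearson correlation of log2(CPM + 10), as a description only, since points of a library share its depth and background. For Il1f6 they were Slc28a3 (r = 0.93), Sprr2e (0.91) and Pla2g4e (0.91), and for Il1f9 Stfa1 (0.95), Sprr2h (0.91) and Orm1 (0.91). For Il1f5 they were Teddm3 (0.97), Cysrt1 (0.96) and Tmprss4 (0.95). Il1f8 was most like Duox1 (0.94), Ephx3 (0.93) and Bpifc (0.92), and Il1a most like Slc28a3 (0.95), Defb14 (0.95) and Atp2c2 (0.94). The genes nearest to Il1b were Clec4n (0.95), H2-DMb1 (0.94) and Csf2ra (0.93), those nearest to Il1rn were Plbd1 (0.96), Rbm47 (0.92) and Blnk (0.91), and Il18 had Gdpd3 (0.88), Plekhn1 (0.77) and Plet1os (0.76). Il33 had weaker neighbours in S100a7a (0.78), Il17b (0.77) and Fabp7 (0.75), as had Il1r2 in Ptgs2os2 (0.85), Sec24d (0.81) and Cd40 (0.80). Among the members themselves, Il1a and Il1f5 were most alike (r = 0.90), followed by Il1f6 and Il1f9 (0.88).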

How the data were processed

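Both tables were deposited as whole-number UMI counts for every gene in every barcode, and per the file headers they came from software version 3.1.0. The submitters' processing notes list Cell Ranger 3.0.2, Seurat 3.0 and mm10. How barcodes were chosen was not stated in the sources used.

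Cells needed 200 genes or more, with mitochondrial UMIs at 10% or less. A cell type needed 3 distinct markers and a minimum summed marker level of 1600 CPM (3200 for fibroblasts and lymphatic endothelium, 6400 for keratinocytes). Cells passing for several lineages were left out (1170 WT and 370 KO cells). Scrublet in scanpy 1.11.5 marked 0 WT and 67 KO cells, so it did not work in WT and doublets remain. UMIs were summed per library and type. Levels have exact Poisson intervals, ratios exact intervals conditional on the summed count, and shares exact Clopper-Pearson intervals, from scipy 1.17.1, all for counting error only. Clustering used 2000 genes, 30 components and 15 neighbours. Cells under 1000 UMIs (2312 WT and 628 KO) were left out of thinned values. The calls were tested on simulated counts. Members and gene lists were chosen with earlier results of these data known. From each list, receptors, the highest gene and the largest ratios each way were to be named, and other genes named were chosen after their values were seen.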

Additional observations from a re-analysis of the deposited data

Results flagged for a closer look

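The members Il1a, Il1rn, Il18 and Il1r2 had intervals of the KO over WT ratio on opposite sides of 1 in 2 cell types or subsets. The difference between the types was not tested, because there is 1 library per genotype. Il1a had a ratio of 1.37 in outer follicle and 0.246 in upper follicle keratinocytes. Il1rn had a ratio of 1.20 in outer follicle keratinocytes and 0.398 in fibroblasts, where its level lay near that of the background cell types. Il18 had a ratio of 1.64 in keratinocytes, whose make-up differed between the libraries as given above, and 0.595 in Mrc1 and Pf4 macrophages. Il1r2 had a ratio of 1.48 in basal keratinocytes, from 151 WT and 93 KO UMIs, and 0.555 in monocytes and macrophages. Whether the basal levels of Il1r2 lay clear of background cannot be told, as given above.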

How the results depend on the processing

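No paired analysis was possible because each genotype has 1 library. In keratinocytes, Il1a, Il1f5, Il1f6, Il1f9 and Il33 had ratios under 1 in KO under every setting, with Il1f6 ratios from 0.143 to 0.202, Il33 ratios from 0.216 to 0.351, and Il1f5 ratios from 0.559 to 0.656. At 2-fold 4 members were lower there, without Il1f5 and Il1b. Il1b there ranged from 0.125 with every cell weighted equally to 0.962 in cells with at least 5000 UMIs, a setting chosen after seeing the data, where it was not called. Members higher in KO keratinocytes fell from 1 to 0 at 2-fold, with subsets weighted equally, and without members that could be free RNA. Thinning to 1000 UMIs left 2 members lower in fibroblasts and 3 in monocytes and macrophages, and leaving out possible free RNA left 1 and 2. The Il1b ratio in fibroblasts turned to 1.14 after thinning. In monocytes and macrophages Il1b ranged from 0.117 to 0.268 and Il1r2 from 0.226 to 0.721. At 2-fold, pathway genes higher in KO numbered 1 against 9 in keratinocytes, 0 against 2 in fibroblasts and 2 against 6 in monocytes and macrophages; after thinning they numbered 2 in keratinocytes and 3 in monocytes and macrophages. The cause was not tested.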
